A study of Mus musculus with 4 samples.

Results

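The cytosolic ribosomal protein genes were followed in liver cells of mice that lacked Pnpt1 in hepatocytes. They were taken as every probe whose RefSeq accession named a mouse gene Rpl or Rps with a number, with or without an a, x, l or l1 ending, together with Rplp0, Rplp1, Rplp2 and Rpsa. S6 kinases, pseudogenes and mitochondrial ribosomal protein genes were left out. The rule found 116 of 41174 probes, for 81 of 16358 named genes. Of these genes, 52 had 1 probe, 24 had 2 and 5 had 3 or more. 5 further symbols that fitted the rule (Rpl10l, Rpl32l, Rpl6l, Rps12l1 and Rps4l) had no probe and are named only.

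PNPase, the product of Pnpt1, degrades RNA and sits mostly in mitochondria. Its liver-specific knockout (HepKO) was compared with wild type (WT) on 4 two-colour Agilent arrays. HepKO mice were Pnpt1 fl/fl with 1 copy of Albumin-Cre, whose promoter is active in hepatocytes, and WT mice were Pnpt1 fl/fl without Cre, all C57BL/6J. The pair labelled male was 12.29 weeks old, with a second age given elsewhere in the labels, and the pair labelled female was 4.29 weeks old. In the first, the HepKO mouse weighed 17.37 g and the WT mouse 22.7 g. In the second, the weights were 16.81 g and 18.49 g. RNA came from cells pelleted after collagenase perfusion of the liver, with no sort for hepatocytes named in the labels. A pair occupied 2 arrays that differed in dye orientation: HepKO RNA was in Cy5 on replicate 1 and in Cy3 on replicate 2. Because both arrays held the same extracts, a pair counted as 1 replicate (n = 2 pairs). Every p-value and standard error rests on the spread between these pairs, which limma moderates with the spread of all genes or probes tested. The pairs differed in sex, age and slide together, and these cannot be told apart.

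Values are log2 ratios of HepKO over WT after loess normalization within each array, so that 0 means equal signal and 1 a doubling. In bulk samples of this kind, fewer cells of a type and less RNA per cell cannot be told apart. Outlier flags touched 178 to 260 spots per array, and no ribosomal protein spot was flagged or saturated. The 2 Pnpt1 probes differed from each other: A_52_P229271 read -0.67, -0.32, -0.50 and -0.60 on the 4 arrays (limma adjusted p = 0.0800), in the order male replicates 1 and 2, female replicates 1 and 2. The brighter A_51_P453343 read 0.31, 0.06, -0.38 and -0.38 (limma adjusted p = 0.747). Where these probes lie relative to the deleted part is not stated in the labels, so neither probe checks the knockout. Signal of Kdm5d, Ddx3y and Eif2s3y, all Y-linked, was above background only in the pair labelled female (2 of 2 arrays, against 0 of 2 in the other pair, in both genotypes), and Xist showed the opposite. The pairs therefore went against their sex labels, and "male pair" and "female pair" stand below for the pairs so labelled.

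Cytosolic ribosomes are built from a large and a small subunit, each an RNA core covered by proteins that are nearly all encoded by single nuclear genes and made in matched amounts. In liver, which secretes most plasma proteins, ribosomal protein mRNAs are among the most abundant transcripts. Most of them start with a run of pyrimidines (a terminal oligopyrimidine tract), through which mTOR signalling sets how actively they are translated, largely without changing how much mRNA is present. An array measures that mRNA amount and not its translation. Mitochondria have a separate set of ribosomal proteins, which is not part of the group described here.

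The start-site sequences of 4 members at the ends of the ranking are shown because mRNAs of this group typically begin in pyrimidines. Each stretch holds 120 bases before and 20 bases after the annotated start, 5′ to 3′ on the gene's strand, from RefSeq on assembly GRCm38.p6, and capitals mark matches to the motifs CTTTCC or CTTTTC on the gene's strand or CCGGAAG on either strand (CTTCCGG when read on the opposite one). Rpl27a had the lowest value of the group, and Rps15a, Rps12 and Rplp2 were among its 4 highest.
Rpl27a, chr7:109519075-109519214, plus strand: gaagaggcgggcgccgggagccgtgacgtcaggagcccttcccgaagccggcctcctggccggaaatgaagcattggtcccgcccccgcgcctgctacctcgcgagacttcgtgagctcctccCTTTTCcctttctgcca
Rps15a, chr7:118116128-118116267, minus strand: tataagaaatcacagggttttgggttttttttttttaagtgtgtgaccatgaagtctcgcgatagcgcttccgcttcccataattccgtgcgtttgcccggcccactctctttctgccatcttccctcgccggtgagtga
Rps12, chr10:23787190-23787329, minus strand: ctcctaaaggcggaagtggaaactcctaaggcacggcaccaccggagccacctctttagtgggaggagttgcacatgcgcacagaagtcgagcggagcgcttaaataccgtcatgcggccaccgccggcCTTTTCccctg
Rplp2, chr7:141447531-141447670, plus strand: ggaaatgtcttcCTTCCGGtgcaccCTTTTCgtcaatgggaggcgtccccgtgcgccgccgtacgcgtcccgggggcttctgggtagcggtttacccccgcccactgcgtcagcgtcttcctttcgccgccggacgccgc
In Rpl27a and Rps12 a CTTTTC match lies within the 20 bases after the start, although their values lay at opposite ends. In Rplp2 the capitals lie before the annotated start. The Rps15a stretch holds none of these exact letters, while its last bases before the start are also rich in c and t. The stretches of Rpsa and Rps15, from the low end and not shown, held no match either.

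RefSeq start-site windows, of 250 bases before to 50 after a start, were found for 61 of the 81 genes (73 windows). CTTTCC or CTTTTC stood on the gene's strand in 40 of the 73 (54.8%), against 23.4% of all 32851 windows. On the opposite strand the shares were 26.0% and 24.0%. CCGGAAG, the core recognised by ETS family factors, stood on either strand in 26 of the 73 windows (35.6%), against 8.86% of all. These matches are a description of the letters, and the levels did not order by them. The 34 measured genes with CTTTCC or CTTTTC had a median log2 ratio of 0.13, and so did the 25 without it. For CCGGAAG the medians were 0.11 in 24 genes with a match and 0.14 in 35 without.

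No ribosomal protein gene passed the test between HepKO and WT, and the ratios averaged over the pairs were small. Of the 81 genes, 79 (111 probes) were bright enough to test. By limma with Benjamini-Hochberg adjustment over 11495 genes, 0 of 79 were higher and 0 lower in HepKO, where 15.7% of all genes were called (12% higher and 3.71% lower). A fit on the separate channels also called 0. At an unadjusted p under 0.05 there were 5 members (Rpl27a, Rpl21, Rplp0, Rpl32 and Rplp1), against 36.4% of all genes. The smallest adjusted p of the group was 0.0737, for Rpl27a. In 36 of 79 members (45.6%) the pairs had opposite signs, against 18.8% of all genes, which brings a mean nearer to 0.

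The members kept close together. Their log2 ratios ran from -0.83 to 0.56 with an interquartile range of 0.32, where all genes tested had an interquartile range of 0.65. 4 of 79 (5.06%), Rpl27a, Rpl21, Rplp1 and Rps15a, lay over 0.5 from 0, against 33.9% of all genes, and 0 lay over 1 from 0, against 13.5%. Under loess, for 72 of the 79 the 95% interval excluded a change of 2-fold or more in either direction. The same held for 7750 of all 11495 genes. The median interval reached 0.46 to each side in the members and 0.42 in all genes. The median of the group was 0.13 and that of all genes 0.08. This sign rests on the scaling: with each array centred on its median in place of loess, the group's median was -0.12 and that of all genes 0.18, and 51 of 79 members lay below 0 in place of 24.

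**Figure D1:**
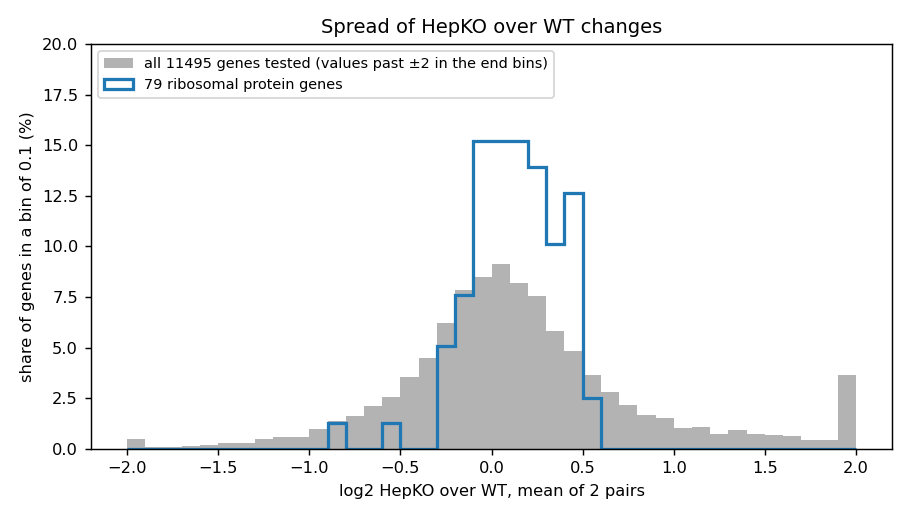
Share of genes (%, vertical axis) in bins of 0.1 of the log2 HepKO over WT ratio (horizontal axis, mean of 2 pairs) for the 79 ribosomal protein genes (outline) and all 11495 genes tested (filled; values past 2 in either direction are in the end bins). The ribosomal protein genes lie between -0.83 and 0.56, and only Rpl27a and Rpl21 lie below -0.3.

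Ribosomal protein spots were among the bright ones on the array, with 65 of 79 in the brightest 10% of all genes tested. Other genes of that class were called more often, at 184 of 1085 (17%) against 0 of these 65. Brightness is a property of a probe and its spot, and is not read here as a transcript level.

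The 48 large subunit genes and the 31 small subunit genes had overlapping values. Their medians were 0.14 and 0.12, and their interquartile ranges 0.35 and 0.29. In the male pair the medians were 0.29 and 0.34, and in the female pair -0.02 and -0.09. No test of the difference between subunits was made.

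**Figure D2:**
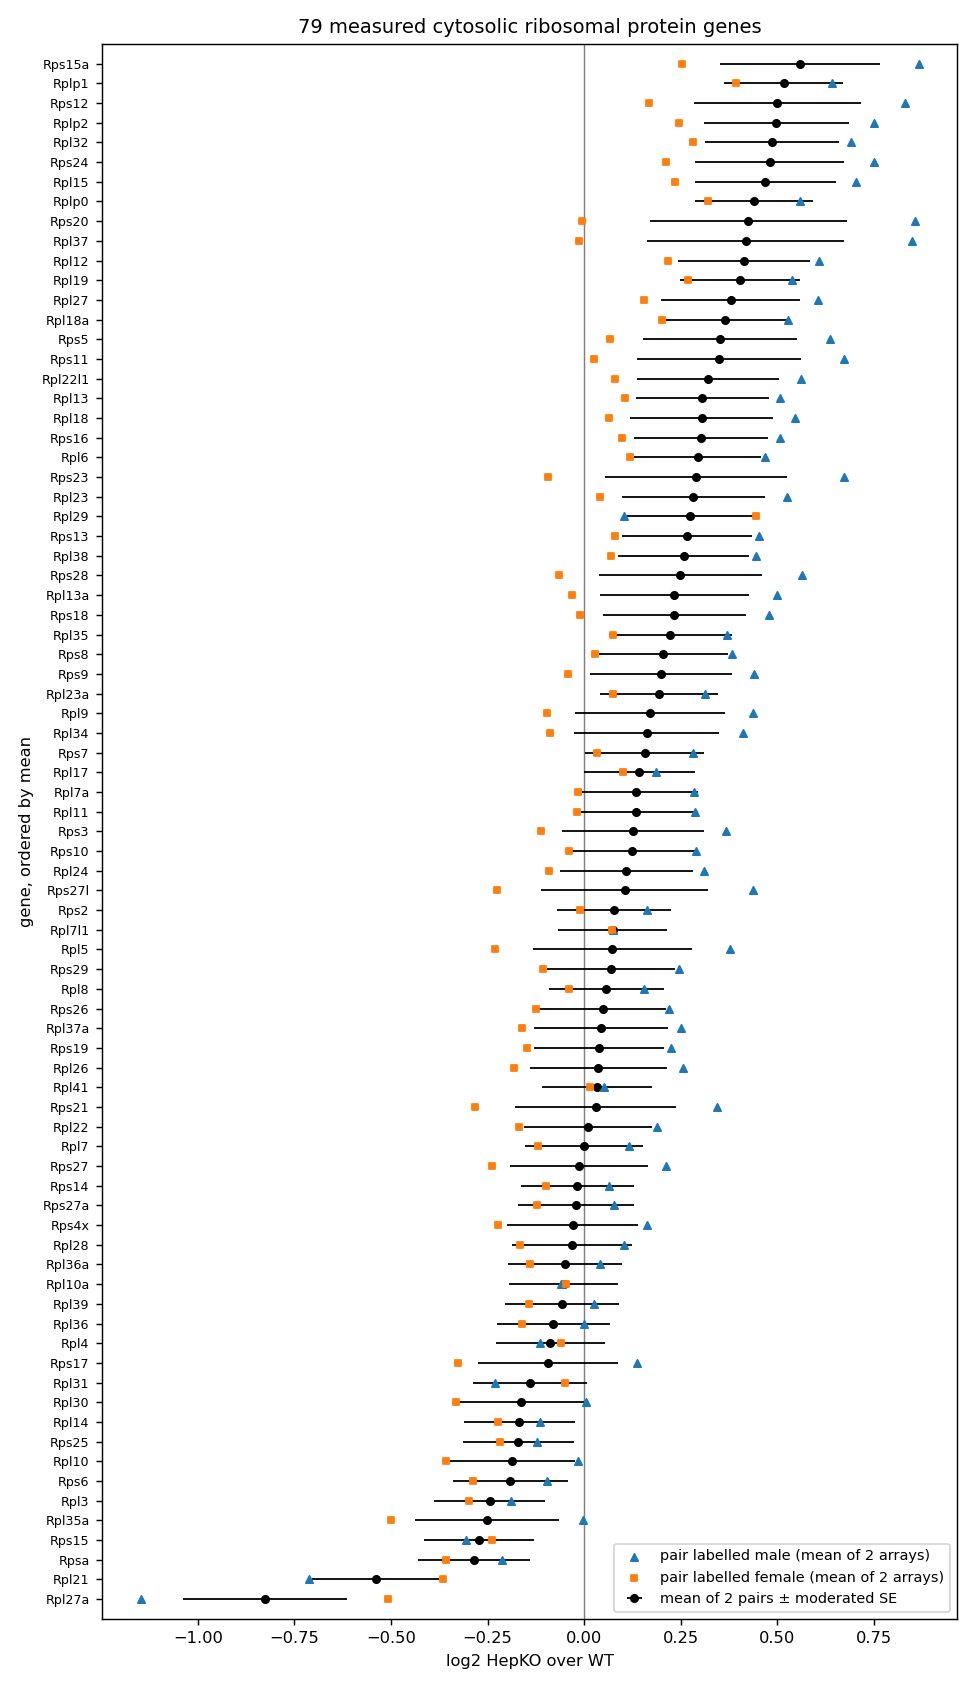
Log2 HepKO over WT (horizontal axis) of each of the 79 genes tested, ordered by the mean of 2 pairs (circle, with the moderated standard error as bar); triangles are the pair labelled male and squares the pair labelled female, each the mean of 2 arrays. Rpl27a at -0.83 and Rpl21 at -0.54 stand apart at the low end, and the male pair lies above the female pair for 72 genes.

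Among large subunit proteins, Rpl27a was the lowest member. Its male pair arrays read -1.03 and -1.27, and its female pair arrays read -0.45 and -0.56. All 4 arrays were below 0, and the pairs did not overlap. The mean was -0.83 ± 0.21 (SE, n = 2 pairs; limma adjusted p = 0.0737). The gene was called lower only when the arrays with HepKO in Cy3 were used alone (limma adjusted p = 0.0495), and its value lay between -0.92 and -0.74 over all 15 alternatives. Rpl21 was next, at -0.66, -0.76, -0.33 and -0.40, and again every array was below 0. Its mean was -0.54 ± 0.16 (SE, n = 2 pairs; limma adjusted p = 0.102). The size of this value moved with the processing, from -1.14 to -0.36 over the alternatives, without passing the threshold in any of them. Of the other large subunit members at the low end, Rpl35a had a mean of -0.25, Rpl3, a protein that reaches into the catalytic centre, -0.24, Rpl10, which joins late and is needed before subunits can pair, -0.19, and Rpl14 -0.17. In Rpl35a and Rpl10 the low values came from the female pair, at -0.50 and -0.36, while the male pair read -0.003 and -0.02.

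The stalk proteins Rplp0, Rplp1 and Rplp2 form the arm of the large subunit that recruits elongation factors. All 3 were above 0 on all 4 arrays, but none passed the test. Rplp1 read 1.05, 0.23, 0.54 and 0.25, with a mean of 0.52 ± 0.15 (SE, n = 2 pairs; limma adjusted p = 0.0974). Rplp2 read 0.93, 0.57, 0.28 and 0.21. Rplp0 read 0.93, 0.19, 0.44 and 0.20, with a mean of 0.44 ± 0.15 (SE, n = 2 pairs; limma adjusted p = 0.127). In Rplp1 and Rplp0 the arrays with HepKO in Cy5 were the high ones in both pairs. With median centring the means of Rplp0, Rplp1 and Rplp2 were -0.07, 0.03 and 0.08. Above 0 on all 4 arrays were 20 of 79 members (25.3%, against 39.4% of all genes), and below 0 on all 4 were 7 (8.86%, against 25% of all genes): Rpl27a, Rpl21, Rpl14, Rpl31, Rpsa, Rps15 and Rps6.

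Other large subunit members at the high end were Rpl32 (0.49), Rpl15 (0.47) and Rpl37 (0.42). Rpl32 read 0.71, 0.67, 0.30 and 0.27, so that every array was above 0 and the dye orientations of a pair were alike. Rpl37 read 1.38, 0.32, 0.05 and -0.08, and its mean rested on the first of these arrays. With median centring Rpl32, Rpl15 and Rpl37 were at 0.12, 0.22 and 0.28. Rpl5, Rpl11 and Rpl23, which can bind Mdm2 and so restrain its action on p53 when ribosome assembly is disturbed, had means of 0.07, 0.13 and 0.28. Rpl5 was above 0 on both arrays of the male pair (0.49 and 0.27) and below 0 on both of the female pair (-0.23 and -0.23). Rpl11 read 0.43, 0.14, 0.06 and -0.10, and with median centring the means of Rpl5, Rpl11 and Rpl23 were -0.27, -0.29 and -0.03.

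Among small subunit proteins the span was narrower, from -0.28 to 0.56. Rpsa, the laminin-binding member of the small subunit, was lowest at -0.18, -0.25, -0.48 and -0.24, with a mean of -0.28 ± 0.15 (SE, n = 2 pairs; limma adjusted p = 0.239). Its second probe gave -0.39. Rps15, near the decoding centre, read -0.59, -0.03, -0.29 and -0.19. Rps6, a substrate of the S6 kinases, read -0.18, -0.01, -0.20 and -0.38, with a mean of -0.19. Rps25 had a mean of -0.17. Rpsa, Rps15 and Rps6 were below 0 on every array, and the 95% interval of each included 0.

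At the high end of the small subunit, Rps15a read 1.12, 0.61, 0.28 and 0.23, all above 0. Its mean was 0.56 ± 0.21 (SE, n = 2 pairs; limma adjusted p = 0.140), the highest of all 79 genes. Rps12 read 1.11, 0.55, 0.36 and -0.02, with a mean of 0.50. Rps24 and Rps20 had means of 0.48 and 0.43. In Rps20 the male pair read 1.33 and 0.39 and the female pair 0.11 and -0.12, so the mean came from the male pair. With median centring Rps15a, Rps12, Rps24 and Rps20 were at 0.41, 0.06, 0.16 and 0.02. Rps27a, which is made as a fusion with ubiquitin, had a mean of -0.02 with HepKO in Cy5 arrays at 0.36 and 0.09 and HepKO in Cy3 arrays at -0.20 and -0.33.

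Several members are used as reference genes in expression work. Rplp0, Rpl32, Rpl19, Rpl13a and Rps18 had means of 0.44, 0.49, 0.40, 0.23 and 0.23. None was called, and all 5 lay above 0, but with median centring they were at -0.07, 0.12, 0.04, 0.05 and -0.20. Rps18 read 0.72, 0.24, 0.06 and -0.09, and Rpl13a read 0.80, 0.20, 0.11 and -0.18, both in the same order of arrays as the group's medians given next.

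The group stood at different levels on the 4 arrays. Male pair replicates 1 and 2 had medians of 0.47 and 0.13, and female pair replicates 1 and 2 had medians of 0.006 and -0.12, while the median of all genes stayed between 0.08 and 0.10. The pair medians were 0.29 and -0.04. The male pair was above the female pair in 72 of 79 members, against 47.7% of all genes, with a median gap of 0.36 in the members and -0.02 in all genes. The exceptions were Rpl27a, Rpl21, Rpl31, Rpl4, Rpl10a, Rpl29 and Rps15. Between arrays of the same dye orientation the male pair was higher in 66 of 79 members with HepKO in Cy5 and in 70 with HepKO in Cy3.

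This gap depended on the scaling. With median centring the male pair was higher in 48 of 79 members and in 41.4% of all genes, and the median gaps were 0.07 and -0.08. Under the other alternatives run on it, including loess with the ribosomal protein probes given no weight, 66 to 73 members had the male pair higher. Leaving out replicate 1 of the male pair lowered the median gap to 0.21, and leaving out its replicate 2 raised it to 0.55. Other bright genes did not show the same direction: of the 1085 other genes in the brightest 10%, 34.3% were higher in the male pair, against 65 of 65 ribosomal protein genes there. With 1 pair of each kind, the difference between pairs was not tested.

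**Figure D3:**
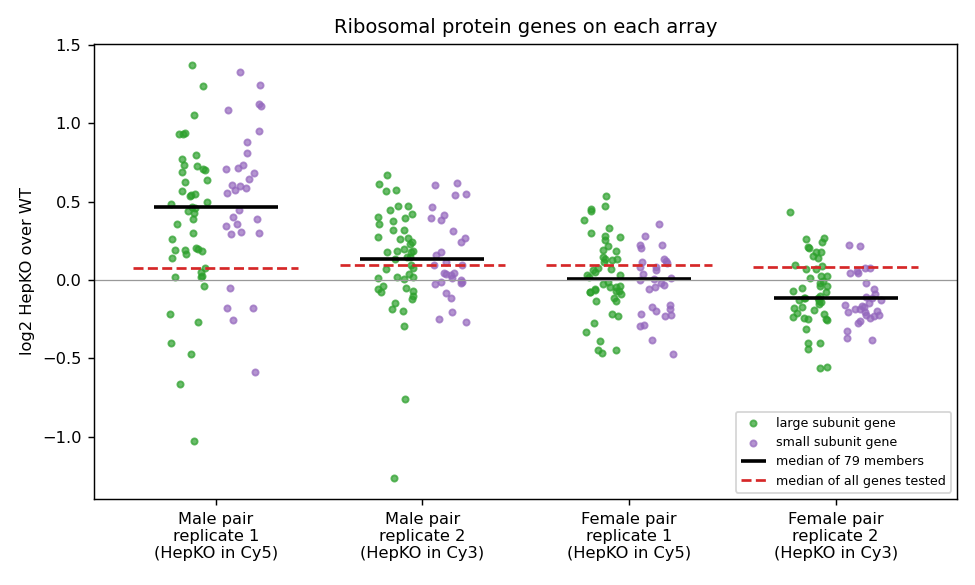
Log2 HepKO over WT (vertical axis) of the 79 ribosomal protein genes on each of the 4 arrays (horizontal axis), with large and small subunit genes as separate clouds of points; solid lines are medians of the 79 members and dashed lines medians of all genes tested. The member median runs from 0.47 on male pair replicate 1 to -0.12 on female pair replicate 2 under loess, while the median of all genes stays near 0.1.

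The dye orientation moved with the values as well. In the male pair the array with HepKO in Cy5 was higher than the array with HepKO in Cy3 in 65 of 79 members, with a median difference of 0.29. In the female pair it was higher in 62 of 79, by 0.09. For all genes the median differences were -0.001 and 0.03. Averaging the orientations within a pair removes a dye effect that is equal on both arrays. Without replicate 1 of the male pair, the median of the group was 0.05. It was 0.20 without replicate 2 of that pair, 0.08 without replicate 1 of the female pair and 0.15 without replicate 2.

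Markers of other cell types moved between HepKO and WT in both pairs. The counts below stand beside 12% of all genes called higher, 3.71% called lower and 36.4% at an unadjusted p under 0.05. Of 25 macrophage markers measured (29 listed), 21 were higher and 0 lower (24 at an unadjusted p under 0.05), with a median of 2.16 for the male pair and 1.66 for the other. They ranged from -0.52 to 6.34 in the male pair and from -0.98 to 3.83 in the female pair, and 21 were above background in both genotypes on all arrays. Of 21 lymphocyte markers measured, 13 were higher, with medians of 0.99 and 0.85, and of 20 endothelial markers 12 were higher, with medians of 0.80 and 1.05. Only 8 of the lymphocyte markers were above background in both genotypes on all arrays, against 19 of the endothelial ones, so that most lymphocyte markers passed the filter through the group in which they were high and their count and medians support nothing here. Hepatocyte secreted proteins, 20 of 25 measured, were above background in both genotypes on every array, with 1 higher (Hpx, 1.67), 1 lower (Apoa2, -1.42) and medians of -0.20 and 0.13. Cell cycle genes, 28 of 31 measured, were higher, with medians of 1.76 and 1.89, and 22 were above background in both genotypes on all arrays. The part of these shifts in the ribosomal protein values was not tested. All of these calls at the level of genes were lost when the background model was fitted on all spots or the filter on dim probes was dropped, settings under which 0 genes were called in all.

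Under loess, 14 members had opposite signs in the pairs on every array, as 972 of 11495 genes did in either order. All 14 were above 0 in the male pair and below 0 in the female pair. Rps27l, a paralog of Rps27 that p53 induces, read 0.56 and 0.32 for the male pair, then -0.22 and -0.23. Rps27 itself read 0.30 and 0.12, then -0.22 and -0.26. Rps21 read 0.68 and 0.002, then -0.38 and -0.19. Rps3, which also takes part in DNA repair, read 0.58 and 0.16, then -0.001 and -0.22. The paralog and its partner thus shared their pattern over the arrays under loess. With median centring the means of Rps27l, Rps27, Rps21 and Rps3 were -0.19, -0.35, -0.25 and -0.23, so the signs rest on the scaling. p53 targets as a list had 8 of 18 measured genes higher and 0 lower (15 at an unadjusted p under 0.05), with a median of 1.01 for the male pair and 0.58 for the other. Over all genes, 12% were called higher and 36.4% had an unadjusted p under 0.05. A link between this list and Rps27l was not tested.

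Among the other paralogs, Rpl22l1, which can take the place of Rpl22 in the ribosome, had a mean of 0.32 against 0.01 for Rpl22. Its arrays read 1.24, -0.12, 0.14 and 0.02, so that the mean came from the first, and with HepKO in Cy3 alone it was -0.05. Rpl7l1 had a mean of 0.07 and Rpl7 of -0.0008, and Rps4x, encoded on the X chromosome, of -0.03. The probes of Rpl39l and Rpl3l, copies best known from testis and muscle, were dim: 1 of the 2 Rpl39l probes was above background on 1 of 4 arrays in each genotype, and the other and that of Rpl3l on none, so no fold is given. The second probes of Rpl37 and Rps15a were left out for the same reason. Ribosomal protein genes have many processed pseudogenes and near-identical copies, and an array probe may not tell these apart.

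Where a gene had several probes, the brightest usually gave the highest ratio. This held in 24 of 26 members with several tested probes (92.3%), against 2655 of 3963 genes (67.0%). The median spread between a gene's probes was 0.10 in members and 0.19 in all such genes. Among all 3963 such genes, probes differed in sign in 787 and by over 0.5 in 603. In members they differed in sign in 8 of the 26. They differed by over 0.5 in 4, a share like that of all such genes: Rpl22, Rpl23, Rpl7a and Rps21. In each of these 4 the dimmest probe was the lowest.

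Of the 111 ribosomal protein probes, 0 were higher and 1 was lower by limma, against 10.3% of 22807 probes called (7.33% higher and 2.99% lower). 12 of the 111 had an unadjusted p under 0.05, against 7764 of all 22807 probes. The probe called was A_52_P391718 of Rpl22, the ribosomal protein best known for its role in T cell development. It read -1.33, -1.40, -1.08 and -1.18, all well below 0. Its mean was -1.25 ± 0.14 (SE, n = 2 pairs; limma adjusted p = 0.0281). The brighter Rpl22 probe, A_51_P387878, read 0.36, 0.02, -0.08 and -0.26, with a mean of 0.01. The probes thus disagreed on every array, and the mean of both was -0.62 (limma adjusted p = 0.0588). Which Rpl22 transcripts each probe detects was not analysed here. The call was lost with the background model fitted on all spots (limma adjusted p = 0.115) and without the filter on dim probes (0.0778), with means of -1.18 and -1.25.

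The dimmest probe of each of 3 other genes was also low on every array without passing the test. These probes were above background in both genotypes on all 4 arrays, and were dim only beside the other probes of their gene. For Rps21, A_52_P740562 had a mean of -0.58 (-0.25, -0.65, -0.84 and -0.60; limma adjusted p = 0.0811) against 0.03 for the brighter probe. This probe was called lower with HepKO in Cy3 alone (limma adjusted p = 0.0493) and without replicate 1 of the male pair (0.0445). For Rpl7a, A_52_P548790 had a mean of -0.51 against 0.14 and -0.01 for the brighter probes, and for Rpl23, A_51_P108190 had a mean of -0.48 against 0.28. Rpl7l1 split in the same way, at -0.37 and 0.07.

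Rpl29, a heparin-binding large subunit protein, had 4 probes and was one of the exceptions to the gap between pairs. Its probe A_52_P326158 read -0.52 and -0.64 for the male pair, then 0.74 and 0.69, with the dye orientations alike within each pair. Probes A_52_P217069 (-0.18 and -0.26, then 0.16 and 0.06) and A_52_P505977 (-0.06 and -0.11, then 0.24 and 0.37) had the same order at smaller size. The brightest, A_51_P400137, read 0.19 and 0.02, then 0.46 and 0.43. All 4 probes were thus higher in the female pair, opposite to most members.

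**Figure D4:**
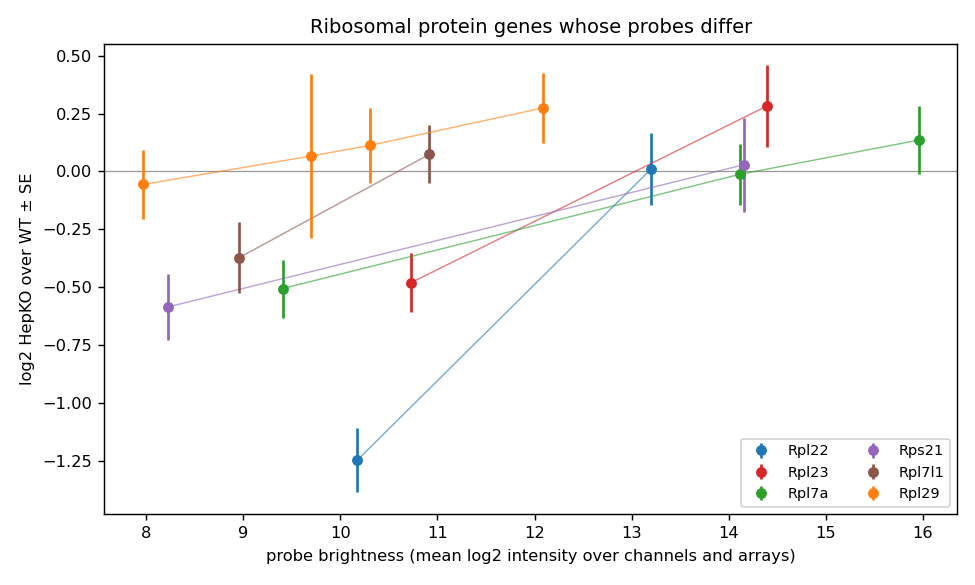
Log2 HepKO over WT (vertical axis, mean of 2 pairs ± moderated standard error) against brightness (horizontal axis, mean log2 intensity over channels and arrays) for each probe of 6 members whose probes differ; lines join the probes of a gene. The dimmest probe is the lowest for each gene, most of all for Rpl22, at -1.25 against 0.01.

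The ribosomal proteins whose symbols fall outside the rule had values within the range of the members. 5 of 7 were measured and 0 were called by limma, with 0 at an unadjusted p under 0.05. Rack1, a signalling scaffold on the small subunit, had a mean of 0.34, and Fau, made as a fusion with a ubiquitin-like protein, also 0.34. Both were below 0 with median centring, at -0.07 and -0.15. Rps3a1 and Rpl36al had means of -0.14 and -0.12.

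Factors that assemble ribosomes were called higher in HepKO less often than all genes, although most of them lay above 0 under loess. Of 84 ribosome biogenesis factors listed, 77 were measured, with 6 higher and 0 lower by limma (24 at an unadjusted p under 0.05) and a median of 0.29. Of all genes, 12% were called higher, and 36.4% had an unadjusted p under 0.05. Nop58, a core protein of box C/D small nucleolar RNPs, read 1.39, 1.25, 1.25 and 1.02 and was higher by 1.23 ± 0.15 (SE, n = 2 pairs; limma adjusted p = 0.0203). Its partner Nop56 read 1.54, 1.37, 0.83 and 0.75 and was higher by 1.12 ± 0.22 (limma adjusted p = 0.0440). Nop2, an rRNA methyltransferase, was higher by 0.87 ± 0.18 (limma adjusted p = 0.0498). The others called were Polr1a (0.85), Riok2 (0.80) and Nob1 (0.75). No gene was called with the background model fitted on all spots or without the filter on dim probes. Nop58 had a limma adjusted p of 0.119 and 0.0689 there. The call of Nop56 was lost without replicate 2 of the male pair (limma adjusted p = 0.0659) and without replicate 1 of the female pair (0.0605), and that of Nop2 without the same arrays (0.0730 and 0.0595). Both calls were also lost with no replicate block (0.0818 and 0.0758) and with the deposited log ratios (0.0721 and 0.0936) or the authors' value table. That of Nop2 was lost as well with ribosomal protein probes given no weight (0.0530), with the mean of a gene's probes (0.0529) and with HepKO in Cy5 alone (0.0547).

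Of 43 translation initiation factors, 42 were measured, with 2 higher and 0 lower by limma (16 at an unadjusted p under 0.05) and a median of 0.18. The list was called less often than all genes, of which 12% were higher and 3.71% lower. An unadjusted p under 0.05 was held by 36.4% of all genes. Eif4e3, a cap-binding family member, read 1.92, 1.73, 1.47 and 1.44 and was higher by 1.64 ± 0.17 (SE, n = 2 pairs; limma adjusted p = 0.0162). Its call, like that of every gene, was lost with the background model fitted on all spots (limma adjusted p = 0.131). The same held without the filter on dim probes (0.0697). Eif6, which keeps the large subunit from joining the small one too early, read 1.42, 1.44, 0.91 and 0.79 and was higher by 1.14 ± 0.20 (limma adjusted p = 0.0369). That call was lost without replicate 2 of the male pair (limma adjusted p = 0.0547) or replicate 1 of the female pair (0.0535). It was also lost with no replicate block (0.0579), with the deposited log ratios (0.0588) or the authors' value table (0.0602), and with the mean of its probes, at 0.94 (0.0580). Eif4ebp2, which holds back the cap-binding factor, had a mean of -0.76 (limma adjusted p = 0.0512). It passed the threshold without replicate 1 of the male pair (limma adjusted p = 0.0461) or replicate 2 of the female pair (0.0322), with no replicate block (0.0440), with a stricter filter on dim probes (0.0450) and with HepKO in Cy5 alone (0.0352).

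Of 18 elongation and termination factors, 17 were measured and 0 called by limma (1 at an unadjusted p under 0.05), with a median of -0.05. The shares over all genes were 15.7% called and 36.4% at an unadjusted p under 0.05. Eef2k, the kinase that inactivates elongation factor eEF2, had a mean of -0.62 (limma adjusted p = 0.0710), and Eef1g and Eef1e1 had means of 0.39 and 0.37. With the deposited log ratios of the scanner software, Eef2k was at -1.34 and was called lower (limma adjusted p = 0.0416). Of 20 regulators of pyrimidine-tract mRNAs and of the mTOR pathway, 17 were measured and 0 called by limma (3 at an unadjusted p under 0.05), with a median of 0.01. In that list, Myc, a driver of ribosome biogenesis genes, read 3.21, 3.56, 1.24 and 1.39 (mean 2.35 ± 0.53 SE, n = 2 pairs; limma adjusted p = 0.0582), all above 0 and higher in the male pair. It passed the threshold in 5 alternatives: without replicate 1 of the male pair (limma adjusted p = 0.0401), with median centring (0.0421), with a stricter filter on dim probes (0.0405), and with HepKO in Cy5 (0.0483) or Cy3 (0.0374) alone. Its partner Max had a mean of 0.97 and Mlst8, a subunit of mTOR complexes, of 0.46.

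**Figure D5:**
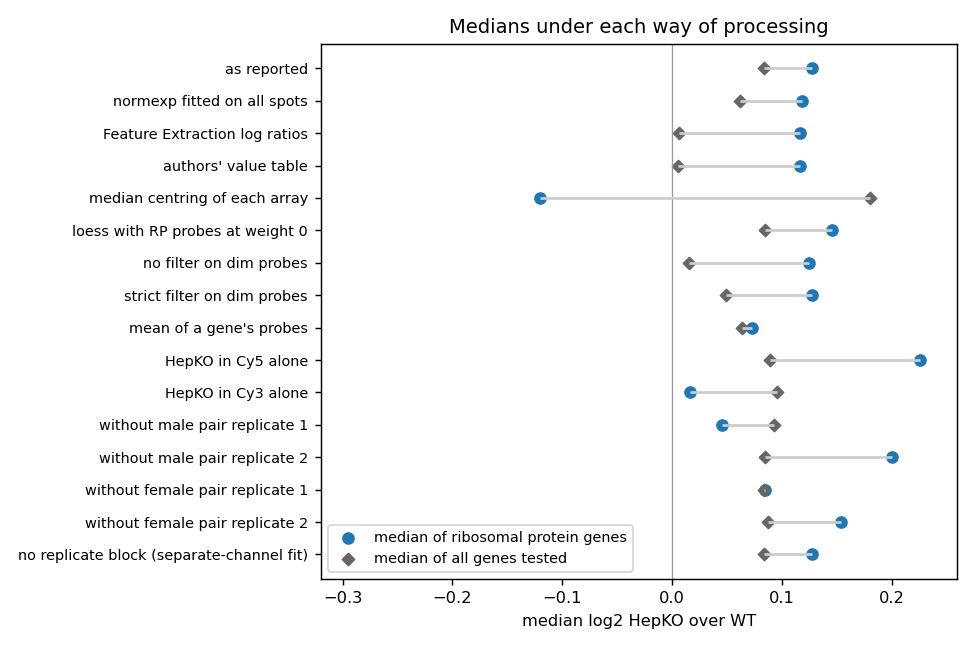
Median log2 HepKO over WT (horizontal axis) of the ribosomal protein genes (circles) and of all genes tested (diamonds) as reported and under each of 15 alternatives (rows). The ribosomal protein median lies between 0.02 and 0.23 except with median centring, where it is -0.12 and that of all genes 0.18.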

How the data were processed

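Per the labels, 4 two-colour arrays compared HepKO with WT liver RNA of 2 pairs. Per the file headers, the scanner software was Agilent Feature Extraction 10.2.1.3. The deposited intensity values used were each spot's mean signal and median local background. The deposited log10 ratios, per the file headers background-subtracted and dye-normalized, and the authors' value table of the same log10 ratios, turned to HepKO over WT, were alternatives. Other steps of the authors are not stated in the labels or headers.

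Outlier-flagged spots were left out. Background was corrected with normexp (offset 50) and ratios normalized by loess within arrays (limma 3.58.1, R 4.3.3), with control spots (1639 of 45018) at weight 0. Dye orientations were averaged per pair. Probes well above background on both arrays of a pair in a genotype were kept (22844 of 41174; 22807 had values on all arrays). RefSeq accessions named 22951 probes through a GRCm38.p6 annotation, and 18223 stayed unnamed. A gene was represented by its brightest kept probe. P-values of limma's intercept model with eBayes (1 residual and 3.12 prior degrees of freedom) were adjusted by Benjamini-Hochberg, threshold 0.05. The number of arrays limits the precision.

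The members and lists were chosen with earlier results of these data known. Named genes were members called, the 10 highest and 10 lowest, paralogs with partners, stalk and reference genes, Rpsa, Rps27a, Rpl5, Rpl11, Rpl23, members whose probes differ by over 0.5 or in sign, Pnpt1 and the 3 largest changes of a list. Rpl31, Rpl4, Rpl10a, Rps23, Rpl9, Rpl34, Rpl24, Rps19, Rpl8, Rpl39, Polr1a, Riok2, Nob1, Rps3a1 and Rpl36al were named after their values were seen, to complete counts. The alternatives changed the background fit, the source of the ratios, the scaling, the loess weights, the filter, the probe rule, the dye orientation and the arrays, and dropped the replicate block.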

Additional observations from a re-analysis of the deposited data

Results flagged for a closer look

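Under loess, the following results had every array of one pair on one side of 0 and every array of the other pair on the opposite side. With median centring the median gap between pairs over the 79 members was 0.07 in place of 0.36. The difference between the pairs was not tested, since each pair is 1 replicate, and the pairs differ at once in sex, age and slide, which cannot be told apart. Male pair minus female pair, on the log2 scale, was 0.77 for Rps23, 0.66 for Rps27l, 0.63 for Rps21, 0.61 for Rpl5, 0.53 for Rpl9, 0.50 for Rpl34 and 0.48 for Rps3. It was 0.45 for Rps27, 0.40 for Rpl24, 0.37 for Rps19, 0.36 for Rpl22, 0.24 for Rpl7, 0.20 for Rpl8 and 0.17 for Rpl39. These are all 14 such members at their brightest probe. It was 0.57 for Pnpt1 at its brightest probe. The gap had the other direction for 3 probes of Rpl29, at -1.29 for A_52_P326158, -0.39 for A_52_P505977 and -0.32 for A_52_P217069.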

How the results depend on the processing

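No ribosomal protein gene was called higher under any of the 15 alternatives, and 1 was called lower, Rpl27a, with HepKO in Cy3 alone. With median centring the median of the members was -0.12, their median minus that of all genes -0.30, and 51 members were below 0. The count of ribosomal protein probes called lower was 0 with normexp fitted on all spots, 0 without the filter on dim probes, 2 with HepKO in Cy3 alone, and 1 to 2 when 1 array was left out. With no replicate block (a fit on separate channels), 0 genes and 1 probe of the group were called lower, the median was 0.13, and 1086 of all genes were called higher and 262 lower, against 1378 and 427. Without replicate 2 of the male pair the counts over all genes were 920 and 202. With normexp on all spots or no filter on dim probes, limma called 0 genes in all, with 3020 and 4638 at an unadjusted p under 0.05. The cause of these shifts was not tested. With 2 pairs, a change within about 0.46 of 0 could not be told from none for most members.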
